A study of Homo sapiens with 4 samples.

Results

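The 4 HOX clusters and their TALE cofactors were read as a positional code on arrays of 4 human prostate cancer cultures, 1 array each. Members were all genes named in the platform annotation whose symbol begins with HOXA, HOXB, HOXC or HOXD, antisense genes included, and the genes of the PBX, MEIS and PKNOX families. Of 63 genes with such symbols in the human gene table, 40 had a named probe, out of 14006 named genes on the arrays. They were 4 genes of the HOXA cluster, 11 of HOXB, 8 of HOXC, 10 of HOXD and 7 TALE genes. The other 23 genes, most of the HOXA cluster among them, are not analysed here.

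HOX genes encode homeodomain transcription factors that give cells a position along the body axis. In each cluster the genes lie in the order in which they are used from head to tail, so that low paralog numbers mark anterior and high numbers posterior positions. PBX, MEIS and PKNOX proteins are homeodomain proteins of the TALE class that bind DNA together with HOX proteins and sharpen their choice of sites. The prostate forms in the posterior body, and HOXB13, the last gene of the HOXB cluster, is a lineage gene of its epithelium whose protein works with the androgen receptor.

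PC3-H and PC3-L are fractions of PC3, a line grown from a bone metastasis and independent of androgen, that were separated with the antibody IIH6C4 against the laminin-binding glycan. By title and source name PC3-H is high and PC3-L low for that glycan, while the free-text descriptions say the reverse; titles were followed. LNCaP depends on androgen, came from a lymph node metastasis and is labelled high for the glycan, although its description calls it androgen-independent. LNCaP-AI is labelled as an androgen-independent, low-glycan LNCaP derivative obtained in charcoal-stripped serum, and its description adds medium conditioned by perineural cells. All cultures grew in RPMI1640 with serum and antibiotics, and PC3-L and LNCaP-AI are labelled as the motile, invasive cultures.

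By most of the line markers measured, the array labelled LNCaP-AI goes against its line label. KLK3, the gene of prostate-specific antigen, had a value of 1781 for LNCaP, 59.0 for PC3-H, 63.4 for PC3-L and 61.2 for the array labelled LNCaP-AI, and the hyaluronan receptor CD44 was 23.9, 239, 318 and 297 on the same arrays. The 3 measured LNCaP markers, KLK3, KLK2 and FOLH1, summed to 3047 on LNCaP and to between 129.7 and 135 on the other arrays. FOLH1 was 944 on LNCaP and 24.2 on LNCaP-AI. Since LNCaP-AI is labelled as obtained in charcoal-stripped serum, the culture may bear on KLK3 and KLK2, which was not tested. The 5 measured PC3 markers, CD44 included, summed to 3881 on PC3-L, 3408 on LNCaP-AI, 1549 on PC3-H and 188 on LNCaP. CD44, AXL and ANXA1 were more than 2-fold lower on LNCaP than on every other array. The chemokine CXCL8 was 46.9 on LNCaP-AI, nearer to LNCaP (22.3) than to PC3-L (497) and PC3-H (302). VIM was 104 on PC3-H and 65.1 on LNCaP, 1.59-fold apart, against 896 on PC3-L and 1216 on LNCaP-AI. It thus did not separate PC3-H from LNCaP, and it weighs heavily in the sums of PC3-L and LNCaP-AI. The 2 measured fibroblast markers summed to 67.3 to 76.1 over the 4 arrays, the 2 endothelial ones to 96.0 to 115 and the 2 perineurial and Schwann cell ones to 81.7 to 98.9. Array medians lay between 39.8 and 41.2, and the lowest value on any array was 17.6. Each culture had 1 array, so no difference has a replicate error and no p-value was computed. Less RNA per cell and fewer cells that express a gene cannot be told apart in these extracts.

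The HOXB cluster on chromosome 17 carried most of the differences between the cultures. Its central run from HOXB2 to HOXB9 was brighter on PC3-L and the LNCaP-AI-labelled array than on PC3-H and LNCaP for each of the 8 genes, while HOXB13 was brightest on LNCaP and dimmest on the array labelled LNCaP-AI. This run was singled out after its values were seen. Over all 14006 genes, 19.1% had both PC3-L and the LNCaP-AI-labelled array above both other arrays and 20.6% had both below. In the HOXB cluster the counts were 9 above and 2 below of 11, in HOXD 7 and 0 of 10, in HOXC 2 and 2 of 8, in HOXA 0 and 1 of 4, and among the TALE genes 3 and 2 of 7.

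**Figure D1:**
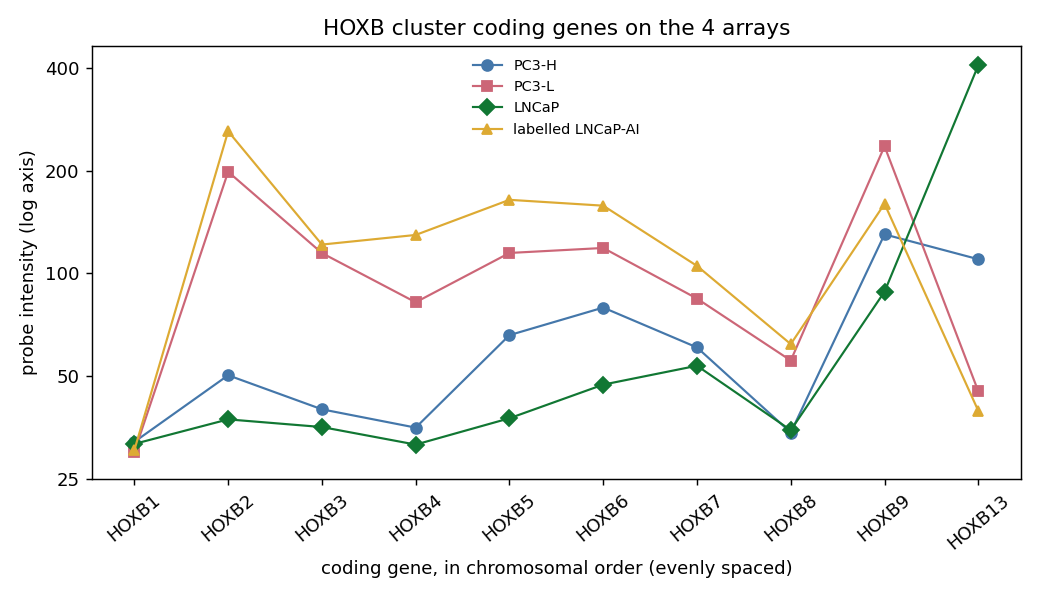
Probe intensity (log axis) of the 10 coding HOXB genes in chromosomal order on each of the 4 arrays, 1 point per array; lines only join points of an array, and levels are to be compared within a gene. From HOXB2 to HOXB9 the PC3-L and LNCaP-AI points lie above the PC3-H and LNCaP points, and at HOXB13 LNCaP stands at 407 and PC3-H at 109.9 above the other arrays.

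Within the run HOXB2 showed the widest separation, and HOXB2, HOXB3 and HOXB4 were the genes past 2-fold in both the PC3 pair and the LNCaP pair. HOXB2, an anterior gene best known from hindbrain patterning, had an intensity of 50.2 on PC3-H, 198 on PC3-L, 37.3 on LNCaP and 261 on LNCaP-AI. The last array was thus 6.83-fold above LNCaP, and PC3-L was 3.89-fold above PC3-H. HOXB3 was 39.9 on PC3-H, 115 on PC3-L, 35.4 on LNCaP and 121 on LNCaP-AI, so the high pair of arrays nearly coincided and so did the low pair. It was 2.83-fold higher in the PC3 pair and 3.36-fold in the LNCaP pair. HOXB4, studied for its effect on blood stem cell expansion, was 35.3 on PC3-H, 82.2 on PC3-L, 31.5 on LNCaP and 129.5 on LNCaP-AI. Its fold was 2.29 in the PC3 pair, where a pseudocount of 16 took it to a log2 difference of 0.94, and 4.02 in the LNCaP pair.

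In the middle of the run PC3-H stood between LNCaP and the bright arrays. HOXB5 was 65.9 on PC3-H, 115 on PC3-L, 37.6 on LNCaP and 164 on LNCaP-AI, with folds of 1.73 for the PC3 pair and 4.28 for the LNCaP pair. HOXB6 was 79.3, 119, 47.2 and 158 on the same arrays, with folds of 1.49 and 3.30. Between LNCaP and PC3-H themselves, HOXB5 differed 1.73-fold and HOXB6 1.67-fold, both higher on PC3-H and both short of 2-fold.

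The rear of the run differed less. HOXB7, which has been studied as a promoter of growth and invasion in several carcinomas, was 60.6 on PC3-H, 84.3 on PC3-L, 53.6 on LNCaP and 105 on LNCaP-AI. HOXB8 was 34.1, 55.5, 34.7 and 62.0 on these arrays. Neither reached 2-fold in any pair, with HOXB7 at 1.94-fold and HOXB8 at 1.77-fold in the LNCaP pair. HOXB9 was the gene of the run with its highest value on PC3-L, at 236, against 160 on LNCaP-AI, 130 on PC3-H and 88.3 on LNCaP. It was past 2-fold only for PC3-L over LNCaP, at 2.65-fold.

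The log2 difference was largest at HOXB2, the anterior end of the run, in both pairs that the study names. In the PC3 pair they went from 1.96 at HOXB2 to 0.47 at HOXB7 and 0.85 at HOXB9, and in the LNCaP pair from 2.77 at HOXB2 to 0.96 at HOXB7 and 0.85 at HOXB9. Across the 8 genes the Spearman correlation of the log2 difference with the paralog number was −0.69 for the PC3 pair and −0.88 for the LNCaP pair. These are descriptions over neighbouring genes measured on the same arrays, and over a run chosen after its values were seen. HOXB1 and HOXB13, the coding genes on either side of the run, were left out of both correlations. HOXB1, anterior to HOXB2, had log2 differences of −0.10 (PC3 pair) and −0.06 (LNCaP pair). Its probe was below the 40th percentile on every array. HOXB13 had −1.27 and −3.33. The correlations therefore hold for the run and do not describe the whole cluster. On PC3-H and LNCaP, HOXB3, HOXB4 and HOXB8 lay below the array medians of 41.2 and 40.8, and HOXB2 and HOXB5 did so on LNCaP only. Differences of such dim probes are understated on this scale. HOXB6, HOXB7 and HOXB9 lay above the medians on both arrays.

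**Figure D2:**
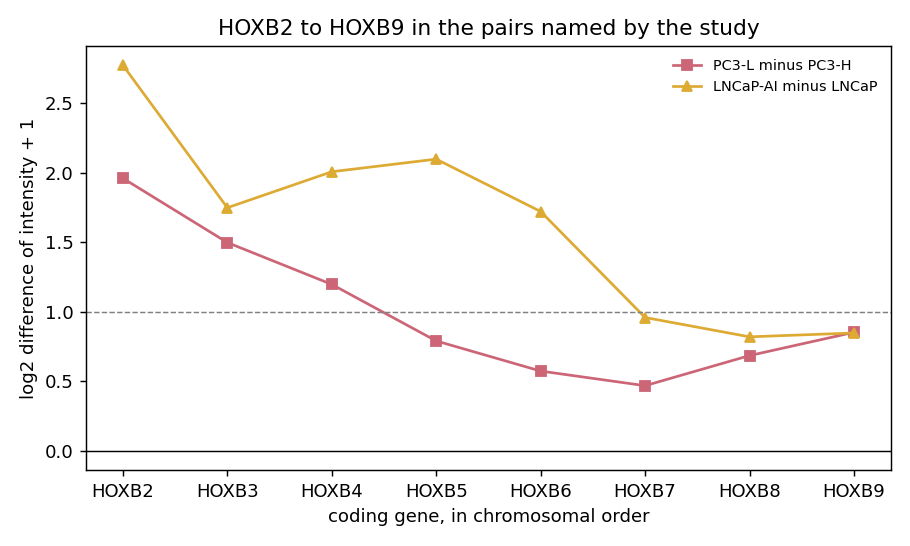
Log2 difference of intensity + 1 for HOXB2 to HOXB9 in chromosomal order, for PC3-L minus PC3-H and for the array labelled LNCaP-AI minus LNCaP; the dashed line marks 2-fold. All 8 genes are above 0 in both pairs, with the highest points at HOXB2.

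HOXB13 ran the other way. Its intensity was 109.9 on PC3-H, 45.1 on PC3-L, 407 on LNCaP and 39.5 on LNCaP-AI, so LNCaP stood highest, PC3-H in between and the other arrays close together. It was 10.1-fold lower on LNCaP-AI than on LNCaP and 2.41-fold lower on PC3-L than on PC3-H, and LNCaP was 3.68-fold above PC3-H. PRAC1, a small prostate-associated gene that lies between HOXB9 and HOXB13 and beside the latter, showed the same order at the top: 645 on LNCaP, 189 on PC3-H, then 51.1 on PC3-L and 29.1 on LNCaP-AI. The 10-fold range of HOXB13 was the widest among all 40 members.

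The anterior end of the cluster and its non-coding genes varied little. HOXB1, the most anterior gene, lay between 29.9 and 32.0 on the 4 arrays, below the 40th percentile of all probes on each. The antisense gene HOXB-AS3, which starts between HOXB4 and HOXB5 in gene order, went from 48.4 on LNCaP to 67.0 on LNCaP-AI, a 1.38-fold range. MIR196A1, a microRNA gene between HOXB9 and HOXB13, was 26.8 on PC3-H, 32.7 on PC3-L, 28.1 on LNCaP and 39.0 on LNCaP-AI. Its copy MIR196A2 in the HOXC cluster was 29.4, 28.1, 27.4 and 42.8. Both were brightest on the array labelled LNCaP-AI and within 2-fold in every pair. Probes of such genes read the precursor and not the mature product. The mature microRNA is shown because both loci encode the same one and it is known to target HOXB8; capitals mark its seed, bases 2 to 8 (RefSeq, GRCh38.p14).
hsa-miR-196a-5p: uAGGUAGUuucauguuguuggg

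The HOXD cluster on chromosome 2 followed the HOXB run at a smaller scale. HOXD4 was 74.5 on PC3-H, 108 on PC3-L, 55.6 on LNCaP and 109.1 on LNCaP-AI, so the last array and PC3-L were alike and both were above the others. The fold was 1.44 for the PC3 pair and 1.95 for the LNCaP pair. Its second, dimmer probe gave 41.9, 93.3, 41.7 and 77.5 on the same arrays, which was 2.20-fold higher on PC3-L than on PC3-H and 2.21-fold higher than on LNCaP. HOXD3 was 40.2, 56.7, 36.4 and 64.5, and HOXD9 was 39.0, 54.2, 37.6 and 63.3, again with both high-motility cultures above both others. HOXD8, HOXD10 and HOXD11 had the same order of groups with ranges of 1.60, 1.61 and 1.31-fold. HOXD12 and the most posterior gene HOXD13 were dim, at 29.8 to 36.8 and 29.7 to 31.3. HOXD-AS2 ran from 34.0 to 42.5 and HOXD1 from 31.4 to 45.6. By the brightest probe of each, no HOXD gene reached 2-fold in any of the 6 pairs of arrays; for PC3-L against LNCaP, HOXD4 came to a log2 difference of 0.95, and to 1.04 as the mean of both probes and 1.01 with a trend with gene length removed. The median log2 difference over the tested HOXD genes was 0.41 for the PC3 pair and 0.60 for the LNCaP pair, against −0.02 and 0.00 over all genes tested. With untested members included it was 0.34 and 0.56 over 10. Because a gene is tested by its higher array, these medians are descriptions only. HAGLR, the long non-coding RNA beside HOXD1, was 34.4 on PC3-H, 53.6 on PC3-L, 32.6 on LNCaP and 41.7 on LNCaP-AI.

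The HOXC cluster on chromosome 12 did not separate the cultures. The widest range among its 8 members was that of HOXC9, at 57.3 on PC3-H, 73.5 on PC3-L, 48.7 on LNCaP and 71.0 on LNCaP-AI. HOXC8 was 115.7, 110.5, 82.9 and 101 on these arrays and HOXC10 was 71.0, 73.6, 66.3 and 90.4. HOXC4 went from 57.8 on PC3-H to 81.5 on LNCaP-AI; in the gene table HOXC4, HOXC5 and HOXC6 begin at the same position, so this probe may not separate them. HOXC11, HOXC12, HOXC13 and HOXC13-AS had ranges of 1.21, 1.33, 1.31 and 1.09-fold. HOTAIR, the long non-coding RNA of this cluster, was dim on all arrays, at 22.2 to 26.1.

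In the HOXA cluster on chromosome 7, HOXA10-AS and HOXA11-AS set PC3-H apart. HOXA10-AS, named as the antisense gene of HOXA10, was 112 on PC3-H against 44.4 on PC3-L, 44.6 on LNCaP and 49.6 on LNCaP-AI. PC3-H stood alone above 3 nearly equal arrays, by 2.48-fold over PC3-L, 2.47-fold over LNCaP and 2.23-fold over LNCaP-AI, the last of which came to a log2 difference of −0.96 with a pseudocount of 16. HOXA11-AS was also brightest on PC3-H, at 56.0, with 28.5 on PC3-L, 34.4 on LNCaP and 33.1 on LNCaP-AI, and stayed within 2-fold. HOXA2 was 44.6, 38.5, 25.5 and 43.6 on these arrays, with LNCaP below the rest, and HOXA-AS3 was 39.2, 31.4, 30.7 and 38.4. In both of these PC3-H and LNCaP-AI were level, within about 1.02-fold. The sources used here do not say whether the array separates an antisense gene from its partner.

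**Figure D3:**
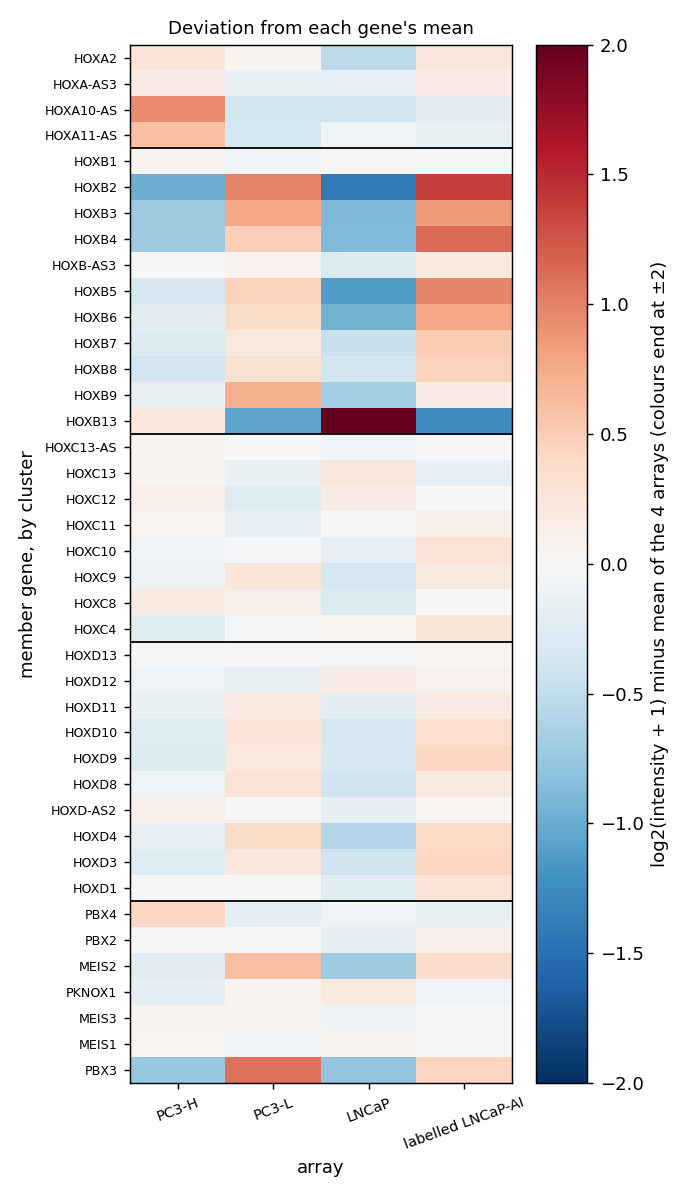
Log2(intensity + 1) of each of the 40 members minus its mean over the 4 arrays, as colour, with genes in chromosomal order within each cluster and TALE genes at the bottom. HOXB2 to HOXB9, MEIS2 and PBX3 are on the red side on PC3-L and the LNCaP-AI-labelled array. The shade is faint for HOXB7 on PC3-L and for HOXB9 on the LNCaP-AI-labelled array. HOXB13 is red on LNCaP, HOXA10-AS is red on PC3-H, and the HOXC rows are pale.

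Among the TALE cofactors PBX3 and MEIS2 went with the HOXB run. PBX3, a DNA-binding partner of HOX proteins, was 35.8 on PC3-H, 132 on PC3-L, 35.1 on LNCaP and 81.9 on LNCaP-AI. It was nearly equal on the dim arrays and highest on PC3-L, with folds of 3.63 for the PC3 pair and 2.30 for the LNCaP pair; a pseudocount of 16 took the latter to a log2 difference of 0.94. MEIS2, a cofactor that binds both HOX and PBX proteins, was 44.7 on PC3-H, 79.8 on PC3-L, 31.1 on LNCaP and 66.8 on LNCaP-AI. It was 2.11-fold higher in the LNCaP pair and 1.77-fold in the PC3 pair. Its second probe was dimmer, at 27.5, 32.2, 28.2 and 35.5, and the mean over both probes gave a log2 difference of 0.70 in the LNCaP pair, short of 2-fold.

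The other cofactors differed less. PBX4 was 67.9 on PC3-H against 44.0 on PC3-L, 47.9 on LNCaP and 45.4 on LNCaP-AI, which is 1.53-fold at most. PKNOX1, which can take the place of MEIS proteins in complexes with PBX, was 75.5, 88.5, 97.8 and 80.6 on these arrays. MEIS1 lay between 41.2 and 45.4 and MEIS3 between 38.4 and 43.5. PBX2 was 103 on both PC3 arrays, 90.1 on LNCaP and 112 on LNCaP-AI. Its 6 probes differed by at most 1.06-fold on any array, less than LNCaP differed from the others, though such probes may share their targets.

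**Figure D4:**
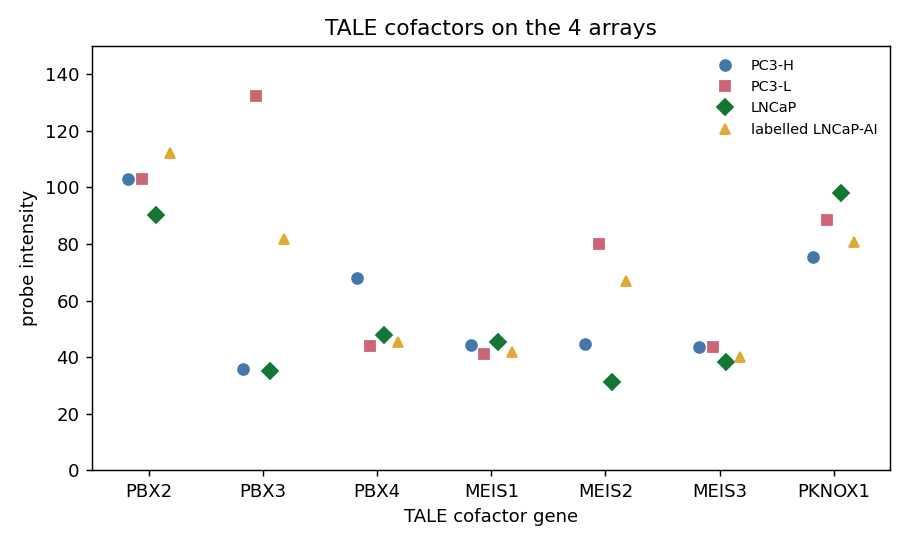
Probe intensity (linear axis from 0) of the 7 TALE genes, with 1 point per array. PBX3 (132 and 81.9) and MEIS2 (79.8 and 66.8) are higher on PC3-L and the LNCaP-AI-labelled array than on the other arrays, and the points of MEIS1 and MEIS3 nearly coincide.

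Promoter windows of 300 bases, from 250 before to 50 after the RefSeq start (GRCh38.p14), were found for 22 of the 40 members, and 18 had no entry, HOXB2 to HOXB9 and HOXB13 among them. The windows of PBX3, MEIS2 and HOXD4 are shown because these are the members with the widest ranges that had an entry, and all were higher on PC3-L and the LNCaP-AI-labelled array. They lie at chr9:125747933-125748232 (plus strand), chr15:37098647-37098946 (minus strand, the second of 2 starts) and chr2:176151300-176151599 (plus strand). Capitals mark matches, on either strand, to TGATNNAT (a site for PBX with HOX), TGACAG (a site for MEIS and PKNOX) and CCAAT.
PBX3: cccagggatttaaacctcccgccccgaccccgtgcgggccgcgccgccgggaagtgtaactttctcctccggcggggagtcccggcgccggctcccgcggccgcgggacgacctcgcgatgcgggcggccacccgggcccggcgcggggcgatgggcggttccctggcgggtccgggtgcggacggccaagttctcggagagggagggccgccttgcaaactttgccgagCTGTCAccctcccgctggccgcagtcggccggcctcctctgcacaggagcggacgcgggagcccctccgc
MEIS2: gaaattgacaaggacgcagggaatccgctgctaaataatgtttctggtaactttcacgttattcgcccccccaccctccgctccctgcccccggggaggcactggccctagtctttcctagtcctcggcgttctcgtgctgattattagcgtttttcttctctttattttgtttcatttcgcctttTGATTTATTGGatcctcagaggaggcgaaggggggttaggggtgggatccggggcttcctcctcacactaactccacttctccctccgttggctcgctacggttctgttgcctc
HOXD4: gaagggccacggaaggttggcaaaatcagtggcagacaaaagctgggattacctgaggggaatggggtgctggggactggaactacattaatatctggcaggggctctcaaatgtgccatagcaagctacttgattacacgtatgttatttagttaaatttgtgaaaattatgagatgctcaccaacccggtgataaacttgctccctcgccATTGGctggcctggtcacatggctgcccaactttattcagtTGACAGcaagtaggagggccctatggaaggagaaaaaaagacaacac
The PBX3 window held 1 match to TGACAG and 43 CG dinucleotides, the MEIS2 window shown 1 match each to TGATNNAT and CCAAT and 16 CG, and the HOXD4 window 1 match each to TGACAG and CCAAT and 4 CG. The window at the other MEIS2 start (chr15:37099057-37099356, minus strand) held 0 matches to these 3 motifs and 35 CG. The choice by range does not decide between the 2 starts, and the one with matches is shown. Of 35116 promoter windows of this length in the table, 7.40% held TGATNNAT, 15.8% held TGACAG and 34.6% held CCAAT, with a median of 14 CG. Among the 24 windows of members 5 held TGATNNAT, 4 TGACAG and 15 CCAAT. A match describes letters in the window and shows no binding.

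Counted over the code, the pairs of arrays differed widely. A member was counted when its higher value reached the 40th percentile of all probes on its array and the difference was at least 2-fold. In PC3-L against PC3-H 6 of 37 tested members were past 2-fold (16.2%), against 12.3% of all genes tested. HOXB2, HOXB3, HOXB4 and PBX3 were the 4 higher on PC3-L (background 8.58%), and HOXB13 and HOXA10-AS the 2 lower (background 3.77%). In the array labelled LNCaP-AI against LNCaP 8 of 38 were past 2-fold (21.1%), against 10.6%. HOXB2 to HOXB6, PBX3 and MEIS2 were the 7 higher (background 5.45%), and HOXB13 was the 1 lower (background 5.13%). By KLK3 and CD44 the array labelled LNCaP-AI goes against its line label, so the LNCaP pair may not be a comparison within a line. HOXB2, HOXB3, HOXB4, PBX3 and HOXB13 were past 2-fold in the same direction in both pairs, which share no array. They are 5 of 37 members tested in both, 4 higher and 1 lower, where 3.26% of the 10755 genes tested in both were past 2-fold the same way (2.2% higher and 1.06% lower). Of the tested members, 3 for the PC3 pair and 7 for the LNCaP pair passed the filter on their higher array alone, so these counts are no independent support.

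The remaining pairs place each array beside the others. PC3-L against LNCaP had 9 of 37 members past 2-fold (24.3%, background 11.7%), 8 higher on PC3-L (background 7.24%) and 1 lower, HOXB13 (background 4.51%). The array labelled LNCaP-AI against PC3-H had 7 of 38 (18.4%, background 7.33%), 5 higher on LNCaP-AI (background 3.98%) and 2 lower (background 3.35%), HOXB13 and HOXA10-AS. LNCaP against PC3-H had 2 of 38 (5.26%, background 9.95%), HOXB13 higher (background 5.46%) and HOXA10-AS lower (background 4.49%) on LNCaP. The array labelled LNCaP-AI against PC3-L had 0 of 37 past 2-fold (background 2.79%, of which 0.832% higher and 1.96% lower), with PBX3 1.61-fold lower and HOXB4 1.57-fold higher on the former as the only differences of 1.5-fold or more. Of the tested members, 7 for PC3-L against LNCaP and 3 for LNCaP-AI against PC3-H passed the filter on their higher array alone. For LNCaP against PC3-H and LNCaP-AI against PC3-L the numbers were 8 and 2, so these counts are no independent support either.

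The mean absolute log2 difference over tested members was 0.21 between the array labelled LNCaP-AI and PC3-L and 0.35 between LNCaP and PC3-H, where all genes tested gave 0.30 and 0.45. It was 0.55 between PC3-L and PC3-H, 0.57 between LNCaP-AI and PC3-H, 0.70 between PC3-L and LNCaP and 0.74 between LNCaP-AI and LNCaP, where all genes gave 0.49, 0.38, 0.47 and 0.45. By these members each array lay nearest to one of the other named line: PC3-H to LNCaP, and PC3-L to the array labelled LNCaP-AI. Over all genes LNCaP-AI was also the array nearest to PC3-L, whereas PC3-H lay nearer to LNCaP-AI (0.38) than to LNCaP (0.45). KLK3 was high on LNCaP alone and CD44 was low on LNCaP alone, so the pairing by HOX values does not follow these line markers.

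**Figure D5:**
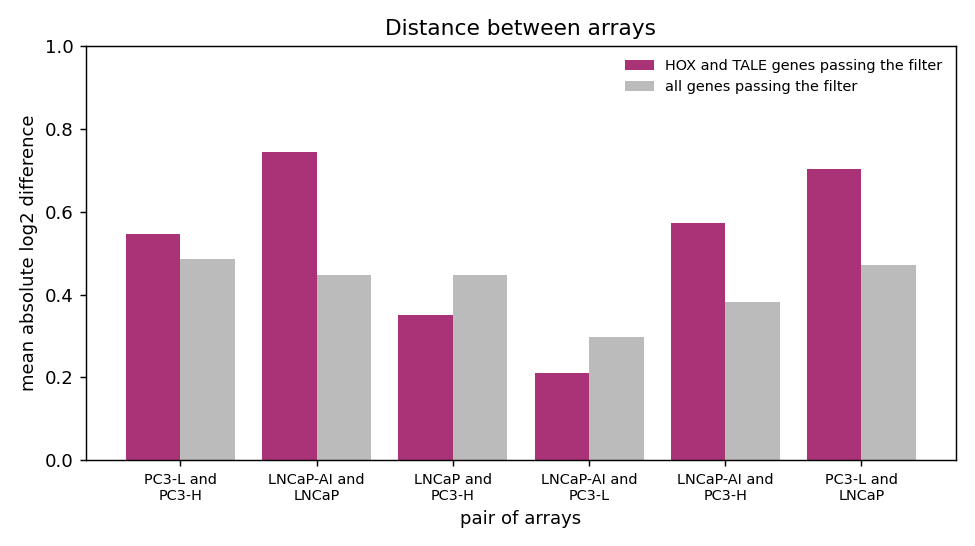
Mean absolute log2 difference for each of the 6 pairs of arrays, over the HOX and TALE genes passing the filter (37 or 38) and over all genes passing it; bars start at 0 and carry no error, with 1 array per culture. The shortest dark bar (0.21) belongs to PC3-L and the LNCaP-AI-labelled array, and the next (0.35) to LNCaP and PC3-H.

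Split by position, coding genes of paralog groups 1 to 3 had a median log2 difference of 0.49 over 5 tested for the PC3 pair and 0.81 for the LNCaP pair. Groups 4 to 8 had 0.53 and 0.96 over 9 tested, and groups 9 to 13 had 0.18 over 10 and 0.36 over 11. All genes tested gave −0.02 and 0.00. With untested members included, groups 1 to 3 had 0.27 and 0.78 over 6, and groups 9 to 13 had 0.00 and 0.23 over 12. The HOXB run has genes in each of these groups. By group in this order, PC3-L against PC3-H had 2, 1 and 1 genes past 2-fold, beside 12.3% of all genes tested. For the array labelled LNCaP-AI against LNCaP the counts were 2, 3 and 1, beside 10.6%. The last in each case was HOXB13, which was lower. With 5 to 11 genes tested per group, such counts are too small to set the groups apart.

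Genes outside the clusters were read from lists. Polycomb and Trithorax proteins hold HOX clusters silent or active. Of 31 measured regulators, 3 of 30 tested were past 2-fold higher in the PC3 pair and 0 lower, with a list median of 0.07, beside 8.58% and 3.77% of all genes tested. PSIP1, a chromatin reader that helps to place menin and MLL complexes, was 79.0 on PC3-H, 258 on PC3-L, 131 on LNCaP and 198 on LNCaP-AI. CBX6, a Polycomb reader of methylated histone H3, was 118 on PC3-H and between 252 and 266 on the other arrays, so it was low on PC3-H alone. PHC1, a Polycomb subunit named here after its value was seen, was 87.8, 178, 113 and 159 on the 4 arrays. In the LNCaP pair 1 of 30 was higher and 1 lower, with a median of 0.08, beside 5.45% and 5.13% of all genes. PHF19, a Polycomb-associated protein, was 140 on PC3-H, 157 on PC3-L, 60.6 on LNCaP and 154 on LNCaP-AI, so it was low on LNCaP alone. KDM6A, a demethylase that removes the Polycomb mark, was 670 on LNCaP against 76.9 for PC3-H, 81.2 for PC3-L and 58.1 for LNCaP-AI. EZH2, the Polycomb methyltransferase, was 140.5 on PC3-H, 109 on PC3-L, 130 on LNCaP and 105 on LNCaP-AI.

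Retinoic acid switches on anterior HOX genes in development, and 7 of 24 listed genes of its pathway were measured, no nuclear retinoid receptor among them. CRABP2, which carries retinoic acid to its receptors, was 179.9 on PC3-H and between 34.9 and 43.3 on the other arrays. DHRS3, an enzyme that turns retinal back to retinol, was 219 on PC3-H, 243 on PC3-L, 84.5 on LNCaP and 415 on LNCaP-AI. In the PC3 pair 0 of 7 tested were past 2-fold higher and 1 lower (CRABP2). In the LNCaP pair 1 of 6 was higher (DHRS3) and 1 lower (RDH11). RDH11 was 133 on PC3-H, 210 on PC3-L, 268 on LNCaP and 126 on LNCaP-AI. The shares of all genes tested were 8.58% higher and 3.77% lower for the PC3 pair and 5.45% and 5.13% for the LNCaP pair.

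Of 62 tested genes for other homeobox and prostate transcription factors, 6 were past 2-fold higher and 4 lower in the PC3 pair and 3 higher and 5 lower in the LNCaP pair. The shares of all genes were 8.58% and 3.77%, and 5.45% and 5.13%. FOXA1, a pioneer factor for the androgen receptor, was 160 on PC3-H, 35.4 on PC3-L, 499.9 on LNCaP and 38.9 on LNCaP-AI. EHF, an epithelial ETS factor, was 202, 33.7, 902 and 36.5 on these arrays, SPDEF was 306, 56.5, 566 and 76.6, and GRHL2, a factor of epithelial junction genes, was 129, 29.3, 287 and 32.8. HOXB13 had the same order of LNCaP, then PC3-H, then the other arrays. Other epithelial genes did not all share it: EPCAM was 667 on PC3-H, 30.1 on PC3-L, 314 on LNCaP and 33.3 on LNCaP-AI, KRT8 was 88.0, 107, 123 and 94.8, and KRT18 was 1436, 1029, 732 and 786. The 4 prostate epithelium markers, HOXB13 among them, summed to 2301, 1212, 1576 and 954 on these arrays, and their part in the HOXB13 result was not tested. The genes of the list past 2-fold higher in both pairs, named after their values were seen, were ZEB1, SATB1 and SHOX2. ZEB1, a repressor of epithelial genes, was 38.2 on PC3-H, 225 on PC3-L, 36.5 on LNCaP and 157 on LNCaP-AI, SATB1, a chromatin organiser, was 38.3, 82.2, 32.1 and 92.4, and SHOX2 was 35.6, 83.6, 40.5 and 84.3. They divided the arrays as the HOXB run did.

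By distance between mean-centred log2 profiles over the 4 arrays, among 2662 genes outside the members with at least a 2-fold range, the nearest to HOXB13 were MARVELD2 (0.23), a tight junction gene, EPPK1 (0.34), an epithelial plakin, and MYO5C (0.38), an epithelial myosin. Nearest to HOXB2 were CYBRD1 (0.22), an iron-linked reductase, NTSR1 (0.25), the neurotensin receptor, and NBEA (0.30). Nearest to HOXB5 were CNTNAP1 (0.19), FMNL3 (0.27) and CMTM3 (0.31). With 4 points per profile, such likeness is a description only.

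The 40 measured genes that flank the clusters, 5 on each side of each, were read beside them. Flanks were counted from the outermost measured member. The cluster non-coding genes HOTTIP, MIR615 and LINC02381 are therefore among them, none past 2-fold in any pair. In the PC3 pair 3 of 32 tested were past 2-fold, IGF2BP1, ATF2 and NFE2L2, and in the LNCaP pair 3 of 31, IGF2BP1, ATF2 and CHN1, all of them higher, beside 8.58% and 5.45% of all genes tested. Beside HOXB, IGF2BP1, an RNA-binding protein of fetal tissues, was 38.5 on PC3-H, 119 on PC3-L, 46.2 on LNCaP and 130 on LNCaP-AI, while SKAP1 on the other side lay between 30.7 and 34.2 and CALCOCO2, between HOXB13 and IGF2BP1, between 112 and 147. Beside HOXD, ATF2 was 102, 324, 140 and 281 on these arrays and NFE2L2 74.9, 205, 100.1 and 172, the same division of arrays as in the cluster. EVX2, next to HOXD13, lay between 55.1 and 69.0. Beside HOXA, EVX1 and HOTTIP had ranges from 39.6 to 48.8 and from 29.1 to 34.6.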

How the data were processed

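RNA from 4 cultures was hybridised to Affymetrix whole-transcript arrays (1 each) after biotin labelling with the WT Terminal Labeling Kit per the labels' protocols. The authors deposited 1 linear intensity per probe and array, a scale inferred from the values. How the authors summarised probes, corrected background and normalised arrays is not stated in the labels used here; the series text names GeneSpring GX 12.6 and a 2-fold threshold.

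Of 37934 probes, 14952 carried 1 gene symbol, 0 carried several and 22982 were unnamed. The named ones covered 14006 genes, all matched to GRCh38.p14 RefSeq by Entrez identifier, and the probe with the highest mean stood for its gene. Differences are of log2(value + 1). In each of 6 pairs a gene was tested when its higher value reached the 40th percentile of all probes on that array. Array number limits the precision. Members and lists were chosen with earlier results of these data known. Genes past 2-fold in any pair and the TALE genes are given on all arrays, list genes up to 4 per list, and profile neighbours for the 3 coding members with the widest range. Beyond the 4 of their lists, PHC1, EZH2, ZEB1, SATB1 and SHOX2 were added. Counting was tested on simulated data. Python 3.11.15, pandas 2.3.3 and NumPy 2.4.6 were used.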

Additional observations from a re-analysis of the deposited data

How the results depend on the processing

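No paired analysis was possible because each group has 1 array. Counts of members past 2-fold in either direction stayed within 1.5 times under a pseudocount of 16, no filter, a filter at the 60th percentile, quantile normalization, median centring, the mean of all probes and, chosen after seeing the data, removal of a trend with gene length. By direction, LNCaP-AI against PC3-H had 2 lower and 1 with a pseudocount of 16 (HOXA10-AS lost). At 1.5-fold the counts were 12 for PC3-L against PC3-H, 17 for LNCaP-AI against LNCaP and 6 for LNCaP against PC3-H. They were 2 for LNCaP-AI against PC3-L, 14 for LNCaP-AI against PC3-H and 16 for PC3-L against LNCaP. The share of all genes past 1.5-fold was not computed. These counts therefore have no background and are not to be set against the 2-fold shares. Members at or above the 40th percentile numbered 36 on PC3-H (90%), 35 on PC3-L (87.5%), 32 on LNCaP (80%) and 37 on LNCaP-AI (92.5%). Of all named genes, 75.6%, 75.1%, 75.1% and 75.7% were so on these arrays. At or above the 60th percentile were 20 members on PC3-H and 13 on LNCaP, with no share of all genes computed. Of 32 differences of single members past 2-fold, none changed direction under these alternatives; 5 were within 2-fold with a pseudocount of 16, 2 with the mean of all probes (both MEIS2) and 1 with the length trend removed (PBX3, LNCaP-AI against PC3-H, 0.98). In turn 3 differences came past 2-fold: HOXD4 in PC3-L against LNCaP with the mean of all probes and with the trend removed (1.04 and 1.01), and HOXB6 in LNCaP-AI against PC3-H with the trend removed (1.04). Over all genes the PC3 pair had 955 past 2-fold higher and 419 lower, and 623 and 527 with the length trend removed; all 6 members past 2-fold remained so. LNCaP-AI against PC3-L had 91 higher and 214 lower, and 105 and 158 with the trend removed. The cause of these shifts was not tested. Values near the floor of the table limit the folds of dim genes.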
